A study of Homo sapiens with 32 samples.

Results

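Messenger RNA of 6 epithelial mucins was followed across 4 endometrial cancer cell lines and 4 treatments. The members were MUC16, MUC1, MUC4, MUC13, MUC20 and MUC5B, 6 of the 35238 genes in the deposited table, and they were named as mucins of the endometrial epithelium. They were also chosen by a measured value, the lower level of MUC16 in SM08502-treated than in vehicle-treated SNGM cells, so that difference is given here as a description without a test. Of the 6 genes, 5 passed a filter on low values and were tested, and MUC13 did not. The lines were Ishikawa, labelled CTNNB1-wildtype, and Ishikawa-S33Y, SNGM and HEC265, all labelled CTNNB1-mutated. Each line received 0.1% DMSO as vehicle, paclitaxel, SM08502 or both drugs for 24 h, with 2 libraries in each of the 16 groups. Paclitaxel binds microtubules and blocks mitosis, and SM08502 is an inhibitor of the CDC-like kinases that phosphorylate splicing factors. Each drug was given at its 50% inhibitory concentration for the line, which was 11 nM paclitaxel and 80 nM SM08502 in Ishikawa, 6 nM and 85 nM in Ishikawa-S33Y, 11.7 nM and 350.7 nM in SNGM, and 5.6 nM and 149 nM in HEC265. Dose and line therefore cannot be told apart when responses are set side by side. Per the labels, cells were plated in duplicate, and no label says that the duplicates were separate cultures grown on different days, so p-values measure the spread between these samples, which may be technical.

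Mucins are large glycoproteins with long stretches rich in serine and threonine that carry dense O-linked sugar chains. Transmembrane mucins form the glycocalyx on the apical face of the endometrial epithelium, where they hydrate the surface and limit adhesion, and secreted mucins form the mucus gel. MUC16 carries the CA125 epitope, a serum marker used in the follow-up of ovarian and endometrial cancer. MUC1 is the best known receptive-phase mucin of the endometrium and has a cytoplasmic tail that takes part in signalling. MUC4 binds the receptor ERBB2, MUC13 is a smaller transmembrane mucin of the gut, MUC20 binds the receptor MET, and MUC5B is a gel-forming mucin of the airway and the endocervix.

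In GRCh38.p14, the build of the RefSeq gene table used for positions, MUC16 spans chr19:8848844-9065751, MUC1 chr1:155185824-155192915 and MUC5B chr11:1223066-1262172. MUC4 spans chr3:195746771-195811929, MUC20 chr3:195720978-195733551 and MUC13 chr3:124905442-124934751. The span of MUC5B overlaps the antisense gene MUC5B-AS1. The span of MUC16 overlaps the pseudogenes BOLA3P2 and TRQ-TTG8-1. The strand of counting is not given in the sources used here, so reads of MUC5B and its antisense partner cannot be told apart.

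Promoter windows of MUC16 and MUC1 are shown because the drug comparisons turn on these 2 genes. Each window runs from 250 bases before to 50 bases after a RefSeq transcription start, on the minus strand, 5' to 3', and capitals mark the motifs searched for. RefSeq (GRCh38.p14) lists 2 starts for MUC16, and the first of 2 neighbouring starts is printed for MUC1, at chr19:9065702-9066001, chr19:9010360-9010659 and chr1:155192866-155193165. Of the 6 members, 4 matched the promoter table, and MUC20 and MUC5B did not.
MUC16, upstream start: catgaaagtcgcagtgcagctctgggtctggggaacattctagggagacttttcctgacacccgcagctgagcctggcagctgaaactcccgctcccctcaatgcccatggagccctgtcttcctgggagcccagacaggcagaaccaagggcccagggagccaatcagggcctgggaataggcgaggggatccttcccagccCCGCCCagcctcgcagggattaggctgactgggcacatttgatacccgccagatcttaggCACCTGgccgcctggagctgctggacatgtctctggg
MUC16, downstream start: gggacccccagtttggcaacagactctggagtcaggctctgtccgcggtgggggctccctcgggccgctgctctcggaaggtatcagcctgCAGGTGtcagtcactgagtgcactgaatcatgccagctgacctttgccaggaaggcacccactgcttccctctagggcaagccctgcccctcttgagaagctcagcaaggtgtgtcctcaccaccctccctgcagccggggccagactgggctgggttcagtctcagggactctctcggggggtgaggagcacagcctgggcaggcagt
MUC1: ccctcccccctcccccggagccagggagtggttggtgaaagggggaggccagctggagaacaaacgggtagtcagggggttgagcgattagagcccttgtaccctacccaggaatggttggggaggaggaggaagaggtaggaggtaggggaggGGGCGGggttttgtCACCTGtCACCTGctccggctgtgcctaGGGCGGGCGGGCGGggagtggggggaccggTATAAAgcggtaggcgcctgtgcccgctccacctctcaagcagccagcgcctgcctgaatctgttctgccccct

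Motifs were searched on both strands with overlaps allowed. The MUC1 window holds 1 TATA box (TATAAA), 4 GC boxes of the kind bound by Sp1 (GGGCGG, 3 of them overlapping) and 2 E-boxes (CACCTG, or CAGGTG on the other strand). The upstream MUC16 window holds 1 GC box and 1 E-box, and the downstream window holds 1 E-box. Neither gene's windows hold the core letters CTTTGA or CTTTGT that TCF and LEF factors recognise. Of 35116 promoter windows of the same length, 11.5% hold TATAAA, 45.0% GGGCGG, 20.6% CACCTG, 12.9% CTTTGA and 16.1% CTTTGT. These matches are descriptions of the sequence and not measured binding sites.

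Library depth was 13.03 to 34.13 M reads in 30 of the 32 libraries. The second combination library held 2.99 M reads in Ishikawa-S33Y and 1.61 M in SNGM, where a count of 0 allows up to 1.00 and 1.87 CPM (reads of a gene per 1e+06 reads of the library), respectively, by the rule of 3 reads, which covers counting error only. All 12 markers of endometrial epithelium had a mean over 1 CPM in Ishikawa and Ishikawa-S33Y, 9 did in SNGM (not WFDC2, SOX17 and EMX2) and 11 in HEC265 (not EMX2). The sum of 10 stromal markers was 720 to 1176 CPM in Ishikawa-S33Y and 18.1 to 228 CPM in the other lines. A long-transcript score was the average log2(CPM + 1) over 52 long genes less the average over 80 ribosomal protein genes. It ran from -3.44 to -1.81 in Ishikawa, with both ends in its paclitaxel libraries, and reached -0.33 in SNGM.

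On vehicle, the lines differed widely in MUC16. Its level was 74.0 and 63.7 CPM in the 2 HEC265 libraries, 13.9 and 19.3 CPM in Ishikawa, 7.38 and 13.2 CPM in SNGM, and 4.68 and 3.61 CPM in Ishikawa-S33Y. HEC265 was highest, and Ishikawa and SNGM came close to each other, at 13.9 and 13.2 CPM in their nearest libraries. On the log2(CPM + 1) scale, HEC265 was 2.005 ± 0.31 (SE) above Ishikawa (adjusted p = 6.86e-06, limma) and 3.77 ± 0.31 above Ishikawa-S33Y (adjusted p = 5.08e-10). Ishikawa-S33Y was 1.76 ± 0.31 below Ishikawa (log2 -1.76, adjusted p = 7.09e-05). Over 14 alternatives these 3 differences kept their calls and ran from 0.99 to 2.23, 3.58 to 4.08 and -2.59 to -1.54, in the order given. Ishikawa also had a smaller RNA input, 350 ng against 500 ng, so input and line cannot be told apart in its pairs. The vehicle libraries of SNGM took part in the choice of MUC16, so pairs with SNGM were not tested. Across all tested genes these comparisons called many: 63.3%, 58% and 48.3% of genes differed in the same 3 pairs of lines.

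MUC1 had another order. The vehicle libraries held 13.4 and 24.2 CPM in SNGM, 10.4 and 11.6 CPM in Ishikawa-S33Y, 5.36 and 9.21 CPM in Ishikawa, and 6.19 and 6.25 CPM in HEC265. SNGM was above HEC265 (HEC265 minus SNGM, log2 -1.40 ± 0.29, adjusted p = 3.44e-04) and above Ishikawa (log2 1.24 ± 0.29, adjusted p = 7.88e-04), where 54.9% and 66.8% of genes were called, although the latter difference was -0.10 (adjusted p = 0.850) with the long-transcript score as a covariate. HEC265 was below Ishikawa-S33Y (log2 -0.73 ± 0.29, adjusted p = 0.0373), a call lost under 7 of 14 alternatives, among them the omission of any 1 of the 4 vehicle libraries (adjusted p 0.0771 to 0.1459). SNGM and Ishikawa-S33Y did not differ beyond the threshold (adjusted p = 0.0520), nor did Ishikawa and HEC265, whose libraries overlapped and whose difference changed sign when libraries were re-centred on their medians (log2 -0.16 against 0.056).

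MUC20 was lowest in SNGM. Vehicle libraries held 3.13 and 4.10 CPM there, 8.41 and 7.10 CPM in HEC265, 13.9 and 12.2 CPM in Ishikawa-S33Y, and 11.3 and 16.9 CPM in Ishikawa. SNGM lay below each other line, where 54.9% to 66.8% of genes were called (log2 -1.69 ± 0.33 against Ishikawa, adjusted p = 1.12e-04, -1.61 ± 0.33 against Ishikawa-S33Y, adjusted p = 2.22e-04, and HEC265 minus SNGM 0.93 ± 0.33, adjusted p = 0.0208). The last call was lost without the first SNGM or the first HEC265 vehicle library (adjusted p = 0.127 and 0.1115). HEC265 was also below Ishikawa (log2 -0.76 ± 0.33, adjusted p = 0.0480), a call lost under 8 of 14 alternatives, among them the omission of the second Ishikawa library (adjusted p = 0.310) or of either HEC265 library (0.0792 and 0.187). The levels in Ishikawa and Ishikawa-S33Y overlapped.

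MUC4, MUC5B and MUC13 were near the detection limit in most libraries. MUC4 exceeded 1 CPM in 5 of 32 libraries and never passed 1.67 CPM. Its vehicle level was 0.986 and 0.964 CPM in Ishikawa-S33Y, 0.712 and 0.618 CPM in HEC265, 0.287 and 0.322 CPM in SNGM, and 0.123 and 0.384 CPM in Ishikawa. Ishikawa-S33Y was above Ishikawa (log2 0.66 ± 0.19, adjusted p = 0.00584) and above SNGM (SNGM minus Ishikawa-S33Y, -0.60 ± 0.19, adjusted p = 0.00889, where 60.8% of genes were called). The first of these calls was lost without the first Ishikawa vehicle library (adjusted p = 0.0844) and with the long-transcript score (0.367), and the second under quantile normalization (0.135).

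MUC5B was highest in HEC265 and was also read at low levels elsewhere, with up to 16 reads a library in Ishikawa-S33Y, 14 in SNGM and 3 in Ishikawa. All 8 HEC265 libraries and no other library exceeded 1 CPM, and the gene entered the tests through that line alone, so differences between HEC265 and other lines are given as values. Vehicle libraries held 3.16 and 2.20 CPM in HEC265, 0.788 and 0.252 CPM in Ishikawa-S33Y, 0.128 and 0.410 CPM in SNGM, and no read in either Ishikawa library. The pooled level was 25.8 times the 3-read floor over the 2 Ishikawa libraries (0.103 CPM) in HEC265, 4.86 times in Ishikawa-S33Y and 2.68 times in SNGM. These ratios leave out the counting error of the higher line, and the first SNGM library held 4 reads. SNGM against Ishikawa was not called. Ishikawa-S33Y was above Ishikawa (log2 0.58, adjusted p = 0.00655, limma), where 48.3% of genes were called. That call was lost with the long-transcript score (0.0744) and without the first Ishikawa-S33Y vehicle library. MUC13 never exceeded 0.794 CPM, which was 13 reads, was at 0 in 7 libraries and did not enter the tests. With MUC5B counted, 16 of 27 tested differences between lines on vehicle passed the threshold, 9 higher and 7 lower. Among them are MUC5B calls for HEC265 against each other line, which its filter favours. The count is near the 58.7% of all gene-by-pair tests that were called, and is not read as a result about mucins.

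**Figure D1:**
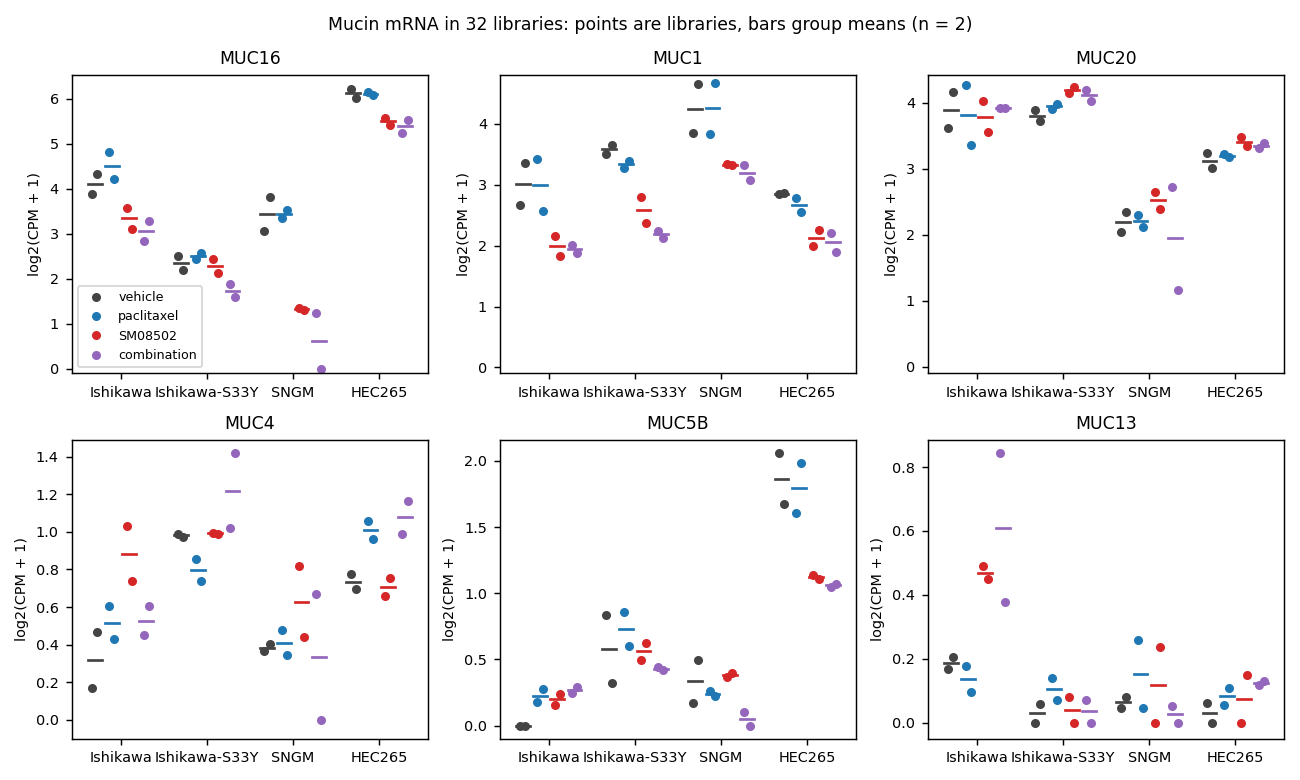
Level of each mucin as log2(CPM + 1), 1 panel per gene, with the 4 lines on the horizontal axis and treatments in colour. Points are libraries and short bars are group means of 2. MUC16 is highest in HEC265 and lowest in SNGM treated with SM08502 or both drugs, and MUC5B stands above the floor in HEC265.

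SM08502 was set against vehicle to find the response to the kinase inhibitor. In SNGM, the comparison that led to the choice of these genes, MUC16 was 1.56 and 1.49 CPM with SM08502 (43 and 42 reads) and 7.38 and 13.2 CPM with vehicle (231 and 449 reads). The mean differed by -85.1%, or by -2.11 in log2(CPM + 1), and the 2 groups did not overlap, as in 26.4% of tested genes in that direction. In the same comparison MUC1 was 9.15 and 8.97 CPM against 13.4 and 24.2 CPM, a difference of -0.92, and those groups did not overlap either. MUC20 was 5.30 and 4.27 CPM against 3.13 and 4.10 CPM. None of the 12 epithelial markers was called in either direction there, and 7.86% of all tested genes were.

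A further reading of MUC16 in SNGM came from the libraries that the choice did not use, those with both drugs and those with paclitaxel alone. It is not independent of the choice. Line, SM08502 dose and experiment are the same, and the spread behind its SE is shared with the libraries that the choice used. MUC16 was 9.23 and 10.6 CPM with paclitaxel (283 and 317 reads), 1.37 CPM in the first combination library (37 reads) and at 0 reads in the second, shallow one. The 2 groups did not overlap, as in 18.9% of tested genes in that direction. The difference was -2.82 ± 0.31 in log2(CPM + 1) with a 95% interval of -3.46 to -2.19 (adjusted p = 4.63e-06), and 6.6% of all genes were lower in this comparison. Without the shallow library the difference was -2.20 (adjusted p = 9.79e-05). With a pseudocount of 0.1 in place of 1 it was -4.71 (adjusted p = 1.38e-04), and in a fit to the SNGM libraries alone the adjusted p was 0.0559, over a range of 9.35e-08 to 0.0559 for all 15 alternatives.

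The same contrast was compared between lines. MUC16 in Ishikawa was 27.1 and 17.7 CPM with paclitaxel and 6.17 and 8.81 CPM with both drugs, and it fell by 1.45 ± 0.31 (log2 -1.45, adjusted p = 0.00329, against 6.14% of genes lower). In Ishikawa-S33Y it was 4.42 and 4.95 CPM against 2.67 and 2.01 CPM (log2 -0.77 ± 0.31, adjusted p = 0.04996, against 17.4% of genes lower). In HEC265 it was 69.9 and 66.4 CPM against 36.9 and 45.5 CPM (log2 -0.72 ± 0.31, adjusted p = 0.128, against 6.53% of genes lower). The difference in SNGM minus the mean of the other 3 lines was -1.84 ± 0.35 with a 95% interval of -2.58 to -1.11 (adjusted p = 0.00322, against 4.95% of genes lower). It was -1.27 (adjusted p = 0.0249) without the 2 shallow libraries and -1.22 (adjusted p = 0.0293) without the SNGM one. By limma voom on recovered reads, the adjusted p was 0.0579, the highest over 27 alternatives.

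The calls in single lines were less stable. In Ishikawa the adjusted p was 0.0508 without the first paclitaxel library, 0.0585 without the first combination library, 0.107 in the Ishikawa libraries alone and 0.144 with the smaller pseudocount, within a range of 1.61e-04 to 0.144. The Ishikawa-S33Y call was lost under 11 of 15 alternatives (adjusted p 0.0102 to 0.274), among them the omission of any 1 of its 4 libraries (0.0658 to 0.2294). In the opposite sense, HEC265 passed the threshold in a fit to its own libraries (adjusted p = 0.00715) and by limma voom (0.00581).

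SM08502 alone gave MUC16 levels of 10.9 and 7.66 CPM in Ishikawa against 13.9 and 19.3 CPM with vehicle (log2 -0.78 ± 0.31, adjusted p = 0.0909). In HEC265 they were 46.7 and 42.0 CPM against 74.0 and 63.7 CPM (log2 -0.62 ± 0.31, adjusted p = 0.203). Neither pair of groups overlapped, as in 25% and 25.5% of tested genes in that direction, and neither difference passed the threshold. Ishikawa passed it under quantile normalization (adjusted p = 0.0245) and with the long-transcript score (0.0465), over a range of 0.0245 to 0.473. HEC265 passed it in its own libraries (0.0120) and by limma voom (0.0157), over a range of 0.0120 to 0.630. In Ishikawa-S33Y the libraries overlapped, at 4.43 and 3.36 CPM with SM08502 and 4.68 and 3.61 CPM with vehicle (log2 -0.072, 95% interval -0.71 to 0.56, adjusted p = 0.896).

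The combination against vehicle shares the vehicle libraries with the preceding comparison. MUC16 fell in Ishikawa, where both drugs gave 6.17 and 8.81 CPM (log2 -1.05 ± 0.31, adjusted p = 0.0175, against 11.2% of genes lower). That call was lost without the second vehicle library (adjusted p = 0.166) or the first combination library (0.157), in the Ishikawa libraries alone (0.106) and with the smaller pseudocount (0.258). In Ishikawa-S33Y the difference was -0.62 (adjusted p = 0.109, or 0.0290 in its own libraries and 0.0317 under quantile normalization, over a range of 0.0290 to 0.375), and in HEC265 it was -0.73 (adjusted p = 0.102, with a call under 4 of 14 alternatives over a range of 0.00431 to 0.507).

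**Figure D2:**
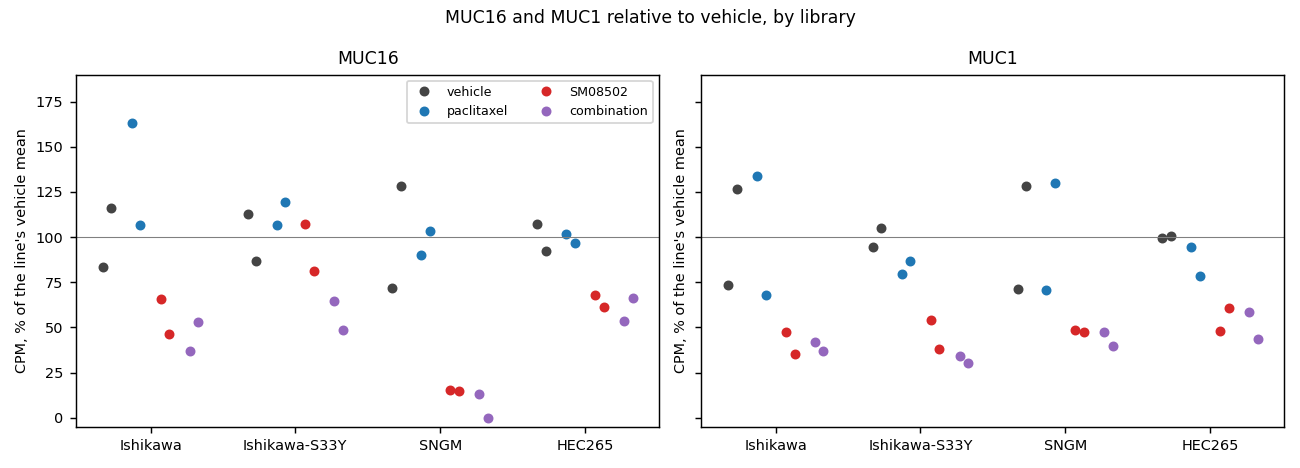
MUC16 and MUC1 in each library as a percentage of the mean CPM of the vehicle libraries of the same line, with lines on the horizontal axis and treatments in colour. MUC16 lies at 13.4 to 15.2% in the SNGM libraries with SM08502 other than the shallow one. The shallow one is plotted at 0%, but its 0 reads allow up to 1.87 CPM, against a vehicle mean of 10.3 CPM. MUC1 lies at 30.4 to 60.8% in all 16 libraries with SM08502.

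MUC1 was lower with SM08502 in each of the 4 lines. Within a line, 4 libraries contained SM08502 (alone or in the combination) and 4 did not. The lowest, median and highest MUC1 levels with SM08502 were 2.55, 2.87 and 3.47 CPM in Ishikawa, 3.34, 3.97 and 5.95 CPM in Ishikawa-S33Y, 7.47, 8.97 and 9.15 CPM in SNGM, and 2.72, 3.32 and 3.78 CPM in HEC265. Without SM08502 they were 4.95, 7.29 and 9.74 CPM, 8.73, 9.97 and 11.6 CPM, 13.3, 18.8 and 24.4 CPM, and 4.89, 6.04 and 6.25 CPM in the same order of lines. The 2 sets did not overlap in any line, a pattern shared by 1.55% of tested genes in the lower direction.

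By line, MUC1 fell with SM08502 alone in Ishikawa (5.36 and 9.21 CPM with vehicle, 3.47 and 2.55 CPM with SM08502, log2 -1.02 ± 0.29, adjusted p = 0.0219) and in Ishikawa-S33Y (10.4 and 11.6 CPM, 5.95 and 4.20 CPM, log2 -0.99 ± 0.29, adjusted p = 0.0140). Of all tested genes 8.68% and 10.6% were lower in these 2 comparisons. In HEC265 the difference was -0.72 ± 0.29 (adjusted p = 0.108). The Ishikawa call was lost without the second vehicle library (adjusted p = 0.268), without the second SM08502 library (0.188), in its own libraries alone (0.191) and by limma voom (0.0961), over a range of 0.00474 to 0.268. The Ishikawa-S33Y call was lost without either vehicle library (0.0502 and 0.0915) or the second SM08502 library (0.149).

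With both drugs, MUC1 fell against vehicle in Ishikawa-S33Y to 3.75 and 3.34 CPM (log2 -1.40 ± 0.29, adjusted p = 6.35e-04) and against paclitaxel from 8.73 and 9.54 CPM (log2 -1.16 ± 0.29, adjusted p = 0.00344). Both calls held under all 15 alternatives run for each, and 18% and 17.4% of genes were lower. It also fell in Ishikawa (log2 -1.06 against vehicle, adjusted p = 0.0127, and -1.05 against paclitaxel, adjusted p = 0.01995). In SNGM it fell to 8.98 and 7.47 CPM (log2 -1.05 ± 0.29, adjusted p = 0.0158 against vehicle, where 7.54% of genes were lower, and 0.0177 against paclitaxel). In HEC265 the differences were -0.80 (adjusted p = 0.0601) and -0.62 (adjusted p = 0.179).

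Leaving out single libraries ended several of these calls. In SNGM the call against vehicle was lost without the second vehicle library (adjusted p = 0.254) or the shallow combination library (0.111), and the call against paclitaxel without the second paclitaxel library (0.280) or the shallow library (0.119). In Ishikawa the call against vehicle was lost without the second vehicle library (0.188) or the second combination library (0.0911), and the call against paclitaxel without the first paclitaxel library (0.264) or either combination library (0.0780 and 0.135). Fits to the libraries of Ishikawa or SNGM alone gave no call (0.1326 to 0.204), nor did limma voom in Ishikawa (0.0777 and 0.0900). The SNGM difference minus that of the other lines was -0.11 (95% interval -0.82 to 0.59, adjusted p = 0.863), so a difference between lines was not detected for MUC1.

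Markers of several cell types moved with these comparisons. SM08502 alone lowered 7 of 12 in Ishikawa (median log2 -0.50, all genes 0.0025), among them CDH1, KRT8 and PAX8, and 9 of 12 in Ishikawa-S33Y (median -0.69, all genes 0.11). In HEC265 only CDH1 was called among them. Of all tested genes 8.68%, 10.6% and 5.39% were lower in these lines, in the order given. In the combination against paclitaxel, 7 of 12 were lower in Ishikawa (median -0.52, all genes 0.0097), 11 in Ishikawa-S33Y (median -0.9995, all genes 0.061), 3 in HEC265 (median -0.30, all genes 0.064) and 2 in SNGM, CLDN3 and CLDN4 (median 0.027, all genes -0.00085). Against vehicle the combination lowered 8, 11, 3 and 2 in the same order, and raised KRT19 in HEC265 and KRT18 in SNGM. Of all genes, in that order, 6.14%, 17.4%, 6.53% and 6.6% were lower against paclitaxel and 11.2%, 18%, 7.16% and 7.54% against vehicle. The SNGM counts of 2 in 12 are near these shares. Beside the rises of KRT19 and KRT18, the combination against vehicle called 3319 genes in HEC265 (1218 lower) and 3128 in SNGM (1283 lower).

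Of 8 tested stromal markers, SM08502 alone lowered COL1A1, THY1 and ACTA2 in Ishikawa, THY1 and ACTA2 in Ishikawa-S33Y and THY1 in SNGM, and raised none. All-gene shares lower were 8.68%, 10.6% and 4.06% in these lines, in the order given. Of 4 tested immune markers, SM08502 raised CD68 and FCER1G in Ishikawa and HEC265, CD14, CD68 and FCER1G in Ishikawa-S33Y (median 0.90, all genes 0.11) and CD68 in SNGM, while the immune marker TYROBP was at 0 in every line. With SM08502, 6.5% of all genes were higher in Ishikawa and 3.8% in SNGM. In either direction 4946 of 17011 genes were called in Ishikawa-S33Y, 1800 of them lower, and 2494 in HEC265, 917 of them lower. The summed level of 8 immune markers was 5.83 to 54.9 CPM over all libraries. In the combination against paclitaxel FCER1G rose in each of the 4 lines, and CD68 rose in HEC265. Of all 17011 genes, 2457 were called there in Ishikawa (1045 lower) and 6708 in Ishikawa-S33Y (2956 lower). In SNGM 2700 were called (1122 lower), and in HEC265 2538 (1110 lower). None of 3 tested endothelial markers was called with SM08502 alone in any line. The part of these markers in the mucin results was not tested. Each library came from 1 labelled cancer cell line, so a marker's change is not read as a change in cell types. In a bulk library fewer cells of a type and less RNA per cell cannot be told apart.

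**Figure D3:**
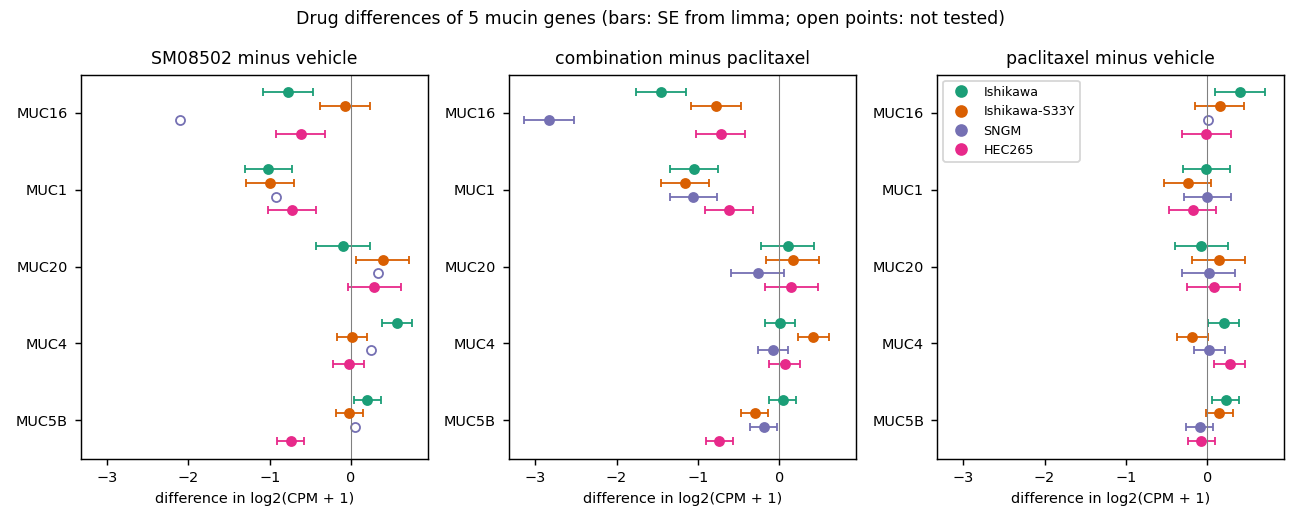
Differences in log2(CPM + 1) for the 5 tested mucins in 3 drug comparisons, 1 colour per line. Bars are standard errors from limma and open points are differences that were not tested because the choice of genes used them. MUC16 in SNGM lies at -2.11 for SM08502 and -2.82 for the combination against paclitaxel, and MUC1 lies between -1.16 and -0.62 in both panels with SM08502.

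MUC20 was not called in any drug comparison. In Ishikawa-S33Y it was 16.8 and 17.9 CPM with SM08502 and 13.9 and 12.2 CPM with vehicle (log2 0.39 ± 0.33, adjusted p = 0.408), and in HEC265 10.2 and 9.15 CPM against 8.41 and 7.10 CPM (log2 0.29 ± 0.33, adjusted p = 0.693). In these 2 lines all 4 libraries with SM08502 lay above all 4 without, as did 32.3% and 30.4% of tested genes. In Ishikawa and SNGM the sets overlapped.

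MUC20P1, a pseudogene copy of MUC20 at chr3:195618625-195620237, was examined after its values were seen, so its values are given without a test. It was 1.91 and 2.98 CPM with SM08502 and 0.986 and 0.461 CPM with vehicle in Ishikawa, a difference of 1.00 in log2(CPM + 1). It was 1.06 in SNGM, 0.92 in Ishikawa-S33Y and 0.57 in HEC265. Reads of a gene and a near-identical copy can be split between them by the counting, so the levels of MUC20 and MUC20P1 are uncertain.

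**Figure D4:**
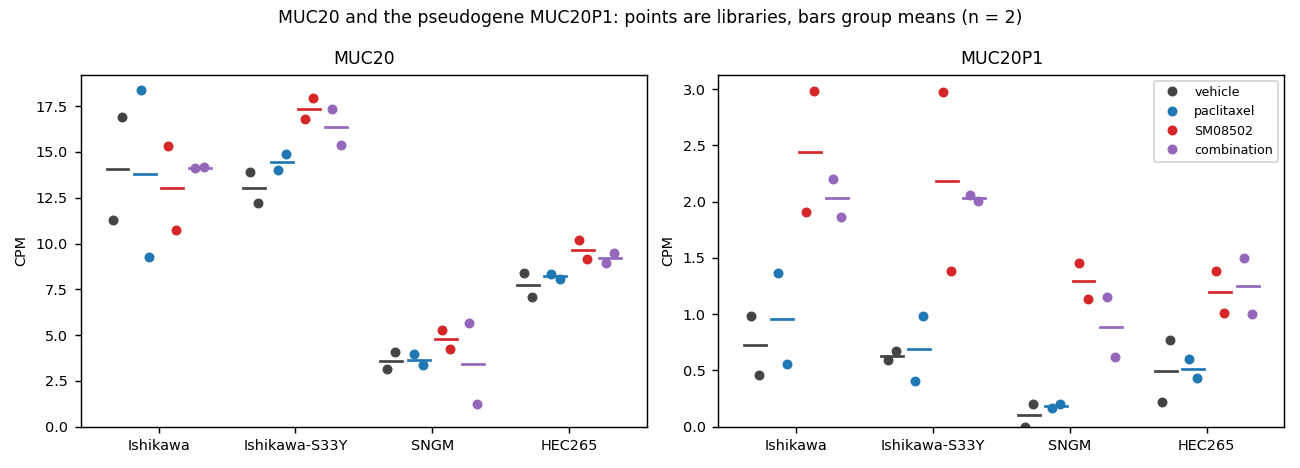
CPM of MUC20 and of its pseudogene copy MUC20P1 in every library, with lines on the horizontal axis, treatments in colour and bars at group means of 2. The mean of MUC20P1 is higher with SM08502 than with vehicle in each line, while that of MUC20 in Ishikawa is not. MUC20P1 was picked after its values were seen, and its vehicle counts were low (0 and 7 reads in SNGM, 5 and 20 in HEC265).

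MUC5B fell in HEC265, the line where it was highest. It was 1.21 and 1.15 CPM with SM08502 (27 and 32 reads) against 3.16 and 2.20 CPM with vehicle (71 and 57 reads), a difference of -0.74 ± 0.17 (adjusted p = 0.00411, against 5.39% of genes lower). With both drugs it was 1.07 and 1.10 CPM, lower than with vehicle (log2 -0.81 ± 0.17, adjusted p = 0.00148, against 7.16% of genes) and than with paclitaxel at 2.04 and 2.96 CPM (log2 -0.74 ± 0.17, adjusted p = 0.00426). The 3 calls were lost with the smaller pseudocount (adjusted p = 0.0969, 0.0529 and 0.0918). The first 2 were lost without the first vehicle library (0.106 and 0.0510), and the third without the second paclitaxel library (0.109).

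MUC4 was called once among drug comparisons, higher with SM08502 in Ishikawa. It rose from 2 and 5 reads with vehicle to 18 and 11 reads with SM08502 (0.123 and 0.384 CPM to 1.04 and 0.669 CPM, log2 0.57 ± 0.19, adjusted p = 0.0452, against 6.5% of genes higher). The call was lost under 8 of 13 alternatives, including the omission of any 1 of its 4 libraries (adjusted p 0.0643 to 0.2775), and with both drugs MUC4 was at 6 and 7 reads. MUC13 had 7 and 6 reads with SM08502 and 13 and 4 reads with both drugs in Ishikawa, against 2 and 2 with vehicle and 2 and 1 with paclitaxel, so the 4 libraries with SM08502 were above the 4 without, as for 12.0% of tested genes. With no filter on low values the adjusted p for MUC13 in Ishikawa was 0.112 for SM08502 against vehicle and 0.0114 for the combination against vehicle.

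Counted over members, SM08502 against vehicle gave 1 higher and 3 lower calls in 15 tests in Ishikawa, Ishikawa-S33Y and HEC265, against 19.6% of all gene-by-line tests in either direction and 8.22% lower. The combination against vehicle gave 5 lower calls in 19 tests and no higher call, against 11% lower. The combination against paclitaxel gave 7 lower calls in 20 tests and no higher call, against 9.16% lower. The tests of 1 gene in several comparisons share libraries and are not independent.

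Paclitaxel against vehicle gave no call in 19 member tests by limma, none at an unadjusted p under 0.05 and none by limma voom. Over all genes 0.00882% of tests were called. MUC16 in Ishikawa was 27.1 and 17.7 CPM against 13.9 and 19.3 CPM (log2 0.40, 95% interval -0.24 to 1.04, adjusted p = 0.871), and the libraries overlapped. The 2 Ishikawa paclitaxel libraries were also the 2 ends of the long-transcript score for that line. In HEC265, MUC16 was 69.9 and 66.4 CPM against 74.0 and 63.7 CPM (log2 -0.011, 95% interval -0.65 to 0.63).

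Adding paclitaxel to SM08502 gave no call in 19 member tests by limma, none at an unadjusted p under 0.05 and none by limma voom, against 0.097% of all tests. MUC16 differed by -0.27 in Ishikawa (95% interval -0.91 to 0.36), -0.55 in Ishikawa-S33Y (-1.19 to 0.086) and -0.11 in HEC265 (-0.75 to 0.53). Without the deep SNGM combination library, which leaves the shallow one, 2 calls appeared.

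Ishikawa-S33Y and Ishikawa were compared for their response to SM08502 because they share a name and differ in the labelled CTNNB1 genotype. None of 5 members differed by limma or limma voom, 1 had an unadjusted p under 0.05, and 2.43% of all genes were called. For MUC16 the response in Ishikawa-S33Y minus that in Ishikawa was 0.70 (95% interval -0.20 to 1.60, adjusted p = 0.432). For MUC1 it was 0.022 (-0.84 to 0.88, adjusted p = 0.989).

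Other genes of the mucin system were taken from fixed lists. For single genes the alternative settings were examined in the members only, so calls of list genes and markers carry no such check. Of 17 further mucin and mucin-like genes, 9 entered the tests. The 4 with the highest means were the sialomucin CD164, podocalyxin (PODXL), the adhesion molecule MCAM and the transmembrane mucin MUC3A. SM08502 lowered 2 of the 9 in Ishikawa (median log2 -0.084, all genes 0.0025), 2 in Ishikawa-S33Y (median -0.17, all genes 0.11), none in SNGM (median -0.010, all genes 0) and 2 in HEC265 (median -0.090, all genes 0.068), and none rose. Of all tested genes 8.68%, 10.6%, 4.06% and 5.39% were lower in these lines, in the order given. In Ishikawa PODXL fell (279 ± 52.0 CPM with vehicle, 142 ± 71.5 CPM with SM08502, SD, n = 2, log2 -1.05, adjusted p = 0.0195). Its replicates there lay far apart, at 193 and 91.8 CPM with SM08502 and 371 and 158 CPM with paclitaxel. In a fit to the Ishikawa libraries alone, 48 of all tested genes were called for SM08502 against vehicle, and 2582 in the main fit. MCAM fell from 40.0 ± 0.645 to 21.9 CPM in Ishikawa (log2 -0.84, adjusted p = 0.00231) and from 19.1 ± 1.77 to 11.0 CPM in Ishikawa-S33Y (log2 -0.74, adjusted p = 0.00275). CD164, at 294 to 690 CPM on vehicle, was not called with SM08502 in any line.

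MUC3A varied most between lines. On vehicle it was 0.315 ± 0.097 CPM (SD, n = 2) in Ishikawa, 4.55 ± 0.262 CPM in Ishikawa-S33Y, 23.6 ± 6.84 CPM in SNGM and 13.6 ± 0.268 CPM in HEC265. All 6 pairs of lines were called (adjusted p 6.49e-13 to 0.0115), where 48.3% to 66.8% of all genes were. MUC3A exceeded 1 CPM in 24 of 32 libraries but in 0 of the 8 Ishikawa libraries. It thus entered the tests through the other lines, and the filter favours its pairs with Ishikawa. The other mucins called lower with SM08502 were at low levels and are named here after their values were seen. The gel-forming mucin MUC5AC was 0.274 CPM with SM08502 and 1.02 CPM with vehicle in Ishikawa-S33Y, and 0.476 and 1.42 CPM in HEC265. MUC5AC exceeded 1 CPM in 9 of 32 libraries, 4 of them in HEC265. MUCL3, listed under its older symbol DPCR1, was 0.659 and 1.79 CPM in HEC265. MUCL3 exceeded 1 CPM in 4 of 32 libraries, all of HEC265, and entered the tests through that line alone. The count of 2 further mucins lower in HEC265 includes MUCL3, a call that the filter favours.

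The enzymes that build O-linked chains were taken next. Of 25 tested, SM08502 lowered 7 and raised 1 in Ishikawa (median log2 -0.28, all genes 0.0025), lowered 4 in Ishikawa-S33Y (median -0.043, all genes 0.11), 2 in SNGM (median -0.15, all genes 0) and 2 in HEC265 (median -0.065, all genes 0.068). With 8.68%, 10.6%, 4.06% and 5.39% of all genes lower, the counts of 2 in 25 and 4 in 25 are near the background. The GALNT enzymes attach the first sugar. GALNT12 fell from 9.65 ± 0.397 to 4.25 ± 0.529 CPM in Ishikawa (SD, n = 2, log2 -1.02, adjusted p = 0.00164) and from 15.1 ± 0.696 to 4.63 ± 0.363 CPM in Ishikawa-S33Y (log2 -1.51, adjusted p = 1.28e-05). GALNT6 fell in the same lines (log2 -1.03, adjusted p = 0.00627, and -0.87, adjusted p = 0.00981). GALNT7 fell in SNGM from 158 ± 22.8 to 87.0 ± 13.6 CPM (log2 -0.85, adjusted p = 9.51e-04) and in HEC265 (log2 -0.52, adjusted p = 0.0210). The branching enzyme GCNT1 fell in SNGM (log2 -0.54, adjusted p = 0.0235), as did GCNT3 in HEC265 (-0.41, adjusted p = 0.0313). GALNT4 was the gene that rose, in Ishikawa (3.64 ± 3.32 to 11.1 ± 6.35 CPM, log2 1.49, adjusted p = 0.0499).

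Among 17 tested partners, sheddases and folding factors, SM08502 lowered 2 in Ishikawa (median log2 -0.39, all genes 0.0025), 2 in Ishikawa-S33Y (median -0.17, all genes 0.11), 1 in SNGM (median -0.023, all genes 0) and 3 in HEC265 (median -0.13, all genes 0.068), and raised none. The counts of 1 and 2 in 17 are near the shares of all genes lower (8.68%, 10.6% and 4.06% in the first 3 lines, and 5.39% in HEC265). ERBB2, the receptor partner of MUC4, fell from 61.2 ± 9.74 to 36.5 ± 5.45 CPM in Ishikawa (log2 -0.73, adjusted p = 0.0147), from 105 ± 5.88 to 47.4 ± 5.34 CPM in Ishikawa-S33Y (log2 -1.13, adjusted p = 1.93e-04) and from 148 ± 3.54 to 82.8 ± 0.422 CPM in HEC265 (log2 -0.83, adjusted p = 0.00592). The galectin LGALS1 fell in Ishikawa (log2 -0.64, adjusted p = 0.00722), Ishikawa-S33Y (-0.71, adjusted p = 0.00156) and SNGM (-0.90, adjusted p = 7.31e-04). ERBB3 fell in HEC265 (log2 -0.65, adjusted p = 0.0262).

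Of 16 tested regulators of mucin genes, SM08502 lowered 2 in Ishikawa (median log2 -0.28, all genes 0.0025), 3 in Ishikawa-S33Y (median 0.040, all genes 0.11) and 1 in HEC265 (median -0.027, all genes 0.068), and raised 1 in SNGM (median 0, all genes 0). Of all genes 8.68%, 10.6% and 5.39% were lower in the first 3 of these lines and 3.8% higher in SNGM, so counts of 1 and 2 in 16 are near the background. In Ishikawa the oestrogen receptor ESR1 fell (51.6 ± 1.01 CPM with vehicle, 35.1 ± 1.68 CPM with SM08502, SD, n = 2, log2 -0.54, adjusted p = 0.0238). NOTCH1 fell there too, with wide spread (29.4 ± 12.2 CPM with vehicle, 10.9 ± 6.78 CPM with SM08502, log2 -1.42, adjusted p = 0.0182). The epithelial ETS factors EHF and ELF3 fell in Ishikawa-S33Y (log2 -0.90, adjusted p = 0.00402, and -0.72, adjusted p = 7.27e-04). The forkhead factor FOXA2, which acts in endometrial glands, fell in HEC265 (log2 -0.51, adjusted p = 0.0464), and the zinc-finger factor KLF4 rose in SNGM (log2 0.53, adjusted p = 0.0432). Paclitaxel alone gave no call in any of these lists in any line.

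Genes with a pattern like that of MUC16 were ranked by Pearson correlation of log2(CPM + 1) over the 32 libraries, among 14408 genes. The libraries share lines and treatments, so the values are descriptions. The GABA receptor subunit GABRP was most alike (r = 0.936), at 259 CPM in HEC265, 26.0 in Ishikawa, 22.5 in SNGM and 6.31 in Ishikawa-S33Y on vehicle, and POLR3C (0.933), NET1 (0.923), LTV1 (0.923) and CPA4 (0.922) followed. After the mean of each line was subtracted, the order was SLC7A6 (0.917), SEMA4B (0.908), UPK3BL (0.900), TSPAN14 (0.873) and SRD5A1 (0.863). On the same measures MUC1 stood at -0.21 over libraries and 0.78 within lines, MUC5B at 0.69 and 0.32, MUC20 at 0.14 and 0.20, and MUC4 at 0.14 and -0.092.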

How the data were processed

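RNA was measured by rRNA-depleted sequencing (FastSelect, KAPA mRNA HyperPrep, NovaSeq6000, per the labels' protocols), from 350 ng of RNA in Ishikawa and 500 ng in the other lines. The submitters' processing notes name bcl2fastq, STAR, kallisto and GRCh38 without roles, and the counter, annotation and strand of counting are not given in the sources used here. The deposited values are log10(CPM + 1), as the values show, since CPM sum to 1e+06 in each library. Whole reads were recovered for 100% of values (tolerance 0.001 reads), giving depths of 1.607 to 34.13 M reads. Samples were grouped by line and treatment from the titles.

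The logarithm was undone to give CPM, and log2(CPM + 1) was tested, so differences of low genes are understated. Genes with CPM above 1 in at least 2 libraries were kept (17011), and limma 3.58.1 (R 4.3.3) was fitted with 16 group means to 32 libraries (16 residual degrees of freedom, empirical Bayes with trend). This fit gives each gene 1 spread for all lines, but duplicates lay unequally far apart. Over 9843 genes their typical gap (root mean square, log2 scale) was 0.133 to 0.557 in Ishikawa groups and 0.103 to 0.144 in HEC265. For SM08502 against vehicle, fits to 1 line alone, with fewer libraries, called 48 genes in Ishikawa (main fit 2582) and 7026 in HEC265 (2494). Main-fit p-values and all-gene shares can thus overstate calls in Ishikawa and understate them in HEC265. Each of 28 contrasts was adjusted over all tested genes by Benjamini-Hochberg, with calls at an adjusted p under 0.05, two-sided. The script was tested on simulated data. The members and lists were chosen with earlier results of these data known. Genes named were the members, the 4 other mucins of highest mean and further tested ones, up to 2 rises and 2 falls per list and line for SM08502, and the 5 most like MUC16 on each measure. List genes were thus picked by the contrast whose adjusted p is printed. MUC5AC, MUCL3 and MUC20P1 were singled out after their values were seen and are given without a p. No member was tested in the contrast that chose the members or, for MUC16, in any contrast with the SNGM vehicle or SM08502 libraries. Alternatives were the filter, pseudocount, scaling, trend, samples fitted, replicate block, limma voom on recovered reads, a long-transcript covariate and leaving out each library. Leaving out the 2 shallow libraries was chosen after seeing the data. Splicing tables were not analysed here.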

Additional observations from a re-analysis of the deposited data

Results flagged for a closer look

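MUC16 was chosen for its lower level with SM08502 in SNGM, so a response there was known beforehand. It was flagged because its response in SNGM also differed from that in the other lines, in libraries that the choice did not use. The fitted spread is shared with the libraries that the choice used. The difference between the combination and paclitaxel in SNGM, minus the mean of the same difference in Ishikawa, Ishikawa-S33Y and HEC265, was -1.843 on the log2(CPM + 1) scale (adjusted p = 0.00322, limma). Its range over 27 alternatives was -3.614 to -1.22, the latter without the shallow SNGM combination library, which held 0 reads of MUC16. The SM08502 dose also differed, at 350.7 nM in SNGM and 80 to 149 nM in the other lines, and dose and line cannot be told apart.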

How the results depend on the processing

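Counts of member calls moved with the settings. For SM08502 against vehicle, 4 calls became 2 with a mean log2(CPM + 1) of at least 2 and 2 with a pseudocount of 0.1, and leaving out 1 library gave 2 to 3. The combination against vehicle gave 3 to 8 calls without 1 library (5 with all), 8 of them without the deep SNGM combination library. The combination against paclitaxel gave 4 with a pseudocount of 0.1 and 4 to 10 without 1 library (7 with all), and the combination against SM08502 gave 0 to 2 (0 with all). The 16 calls between lines became 13 to 18 without 1 library. MUC16 in SNGM with SM08502 (-2.11) was -2.61 with a pseudocount of 0.1, -2.69 by limma voom and -2.49 to -1.73 without 1 library. The SNGM contrast against other lines had 1 member called, 0 by limma voom and 1 to 3 without 1 library. Over single genes, 556 values kept direction and call, 82 lost and 12 gained a call, and 9 reversed. MUC16 with SM08502 in Ishikawa-S33Y became 0.045 with the length covariate, 0.079 without the first vehicle and 0.087 without the second SM08502 library (-0.23 to 0.087 over single omissions). MUC16 with paclitaxel in HEC265 became 0.062 with the covariate, 0.095 without the first vehicle and 0.026 without the second paclitaxel library (-0.12 to 0.095). MUC1 in SNGM minus Ishikawa became -0.10 with the covariate, MUC16 with paclitaxel in Ishikawa-S33Y -0.0011 without the second vehicle library (-0.0011 to 0.30), and MUC16 in HEC265 for the combination against SM08502 0.037 without the first combination library (-0.26 to 0.037). The cause was not tested. All-gene medians shifted by over 0.1 for SM08502 in Ishikawa-S33Y (0.11), for SNGM and HEC265 minus Ishikawa on vehicle (-0.13 and -0.17), and for the SM08502 response of Ishikawa-S33Y minus Ishikawa (0.11).

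Replicate numbers are shared across treatments in the labels, but the correlation of replicate differences between treatments ran from -0.579 to 0.831 over 24 pairs of treatments, so the numbers were not taken to pair samples. With the replicate block, SM08502 against vehicle gave 4 member calls, the combination against vehicle 5 and the combination against paclitaxel 6, since MUC16 in Ishikawa-S33Y was no longer called (adjusted p = 0.0740). No other call of a named member changed with the block. Depth limits MUC4, MUC5B and MUC13, which had 0 to 75 reads a library, and every value from the 2 shallow libraries.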
